A study of Mus musculus with 36 samples.

Results

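Levels of the conjugating enzymes of drug metabolism were followed in liver and in white fat of the epididymal pad (eWAT) of male mice on 3 diet schedules. Members were the protein-coding genes of GRCm38 whose symbols carry the names of the glutathione S-transferases (Gst), the microsomal glutathione transferases (Mgst), the UDP-glycosyltransferases of families 1, 2 and 3 (Ugt) or the cytosolic sulfotransferases (Sult). The annotation held 67 such genes, 22 Gst, 3 Mgst, 21 Ugt and 21 Sult. The liver table held 44 of them among 14052 genes and the eWAT table held 33 among 16690, with 28 in both tables and 49 in either. The other 18 were in neither table, and each gene in a table was above 0.5 CPM (counts of a gene scaled to the total of its library) in at least 6 of its 18 libraries. All mice were wild-type C57BL/6 males of the F0 generation, 24 weeks old, that had eaten chow until 6 weeks of age. LF mice then ate the low-fat diet for 18 weeks, HF mice the high-fat diet for 18 weeks, and HFLF mice the high-fat diet for 9 weeks and then the low-fat diet for 9 weeks. Each diet and tissue had 6 libraries (n = 6), while the series text gives 4 to 6, and whether libraries came from separate mice is not stated in the labels, so that p-values measure the spread between libraries.

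Conjugation is the step of drug metabolism that joins a polar group to a foreign or endogenous compound, which then leaves the cell through export pumps. Glutathione transferases add glutathione to electrophiles, UDP-glycosyltransferases add a sugar, most often glucuronic acid from UDP-glucuronic acid, and sulfotransferases add sulfate from the donor PAPS. Liver is the main site of all of these reactions, and the same enzymes handle bilirubin, bile acids, steroids, thyroid hormones and the aldehydes of lipid peroxidation. In adipose tissue glutathione transferases are best known for removing such aldehydes, and Sult1e1 for inactivating estrogens.

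Counts of the genes in the tables summed to 11662551 to 23295485 per liver library and 8941798 to 31186477 per eWAT library. Levels are CPM with TMM-scaled library sizes, and changes are log2 fold changes ± SE of an edgeR quasi-likelihood fit over all genes of a tissue. A member is said to rise or fall where its p, adjusted over all genes, was under 0.05, and values in brackets after a level are the log2 fold change ± SE and that adjusted p. The 8 hepatocyte markers summed to 72747 to 91735 CPM in HF liver (median 80740), the lowest median of the diets. LF livers gave 85497 to 114851 CPM (median 95183) and HFLF livers 79571 to 91547 (median 86628), so the ranges overlapped. The adipocyte gene Adipoq measured 789.8 to 4019 CPM in eWAT. Liver LF libraries 1 to 4 stood apart: the 11 acute-phase and metallothionein markers summed to 27498 to 41534 CPM there, against 11474 and 14740.3 in LF libraries 6 and 5 and 9373 to 14225 CPM in HF. Among eWAT libraries, macrophage markers summed to 554 to 979 CPM in LF and 1333 to 10639.9 CPM in HF, and adipocyte markers to 33998 to 65588 CPM and 15231 to 50378 CPM. Sums of the 12 clock genes, all measured, differed too. Among LF livers, libraries 1 to 4 had the lowest clock sums (458, 458, 632 and 619 CPM). LF libraries 5 and 6 had 700 and 928. HF livers gave 758 to 956 CPM and HFLF livers 543 to 890. For eWAT, every HF library (477 to 677 CPM) lay below the lowest LF library (721) and the lowest HFLF library (682). The part of the clock list in the diet comparisons was not tested. In whole tissue, fewer cells of a type and less RNA per cell cannot be told apart.

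The order of the enzymes differed between the tissues. Per kb of exon, the 5 highest members in liver were Mgst1, a glutathione transferase of the endoplasmic reticulum and outer mitochondrial membrane (1081 CPM per kb, mean of 18 libraries), Gstp1 of the pi class (664), Gstm1 of the mu class (457), Gsta3 of the alpha class (283) and Ugt2b5, a steroid glucuronosyltransferase (221). In eWAT, by the mean over the 3 diets, they were Mgst1 (276), Gstm1 (260.1), Mgst3, a peroxidase of lipid hydroperoxides (146), Gstz1, which isomerises maleylacetoacetate in tyrosine breakdown (127), and Sult1a1, a phenol sulfotransferase (118). Within eWAT diets, Mgst1 was above Gstm1 in LF (341 and 271 CPM per kb) but not in HF (195 and 215) or HFLF (292 and 295). Of the 28 members in both tables, which were normalized separately, 21 had the higher mean CPM in liver and 7 in eWAT. The 7 were Ugt1a7c, Mgst3, Gstm5, Gstm2, Gstt2, Gsto1 and Gstz1. Mgst3 averaged 10.5 CPM in liver and 160.5 in eWAT, and Ugt1a7c 0.60 and 13.2. For Gstt2, Gsto1 and Gstz1 the ratio of the means (liver over eWAT) was 0.89, 0.90 and 0.93, and their ranges over libraries overlapped between the tissues. The 16 measured Ugt genes summed to 2078 to 2669 CPM in LF liver, and the 6 in eWAT to 24.7 to 48.8 CPM in LF eWAT.

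**Figure D1:**
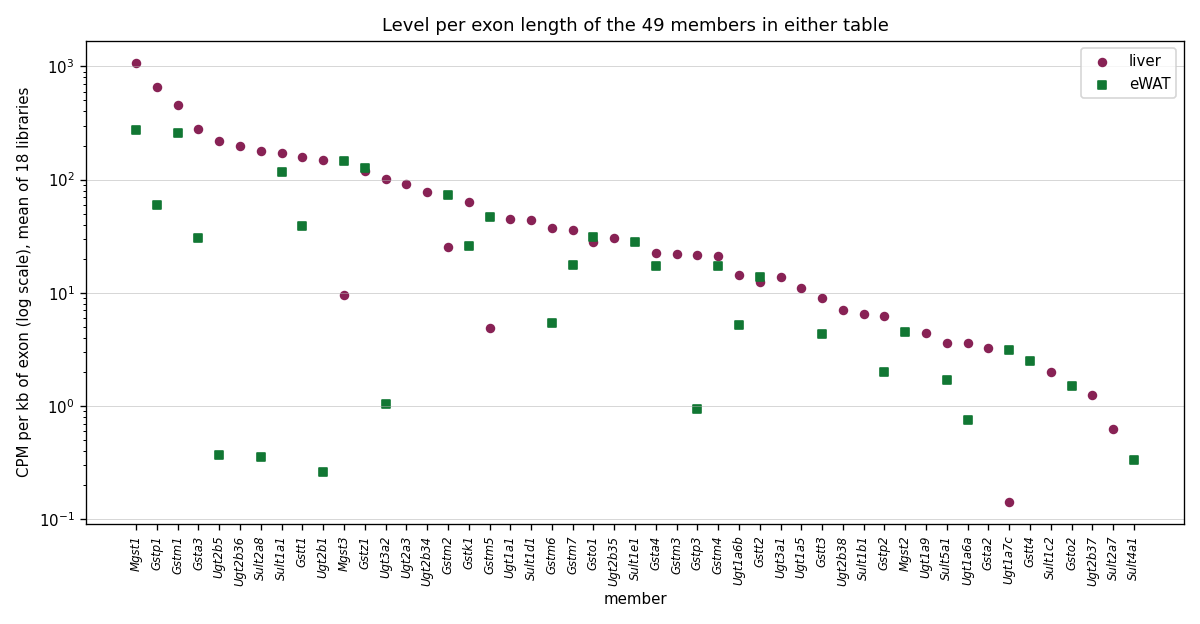
Mean CPM per kb of exon (log axis) over 18 libraries for each of the 49 members in either table, in liver (circles) and eWAT (squares), ordered by the higher of the values. Mgst1 has the highest mean over the 3 diets in both tissues, Mgst3 and Ugt1a7c lie far higher in eWAT, and the Ugt2b genes have liver points with no eWAT point or one far below.

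Members that were not in a table include Gsta1 in both tissues, Sult1e1, Mgst2, Gsto2, Gstt4 and Sult4a1 in liver, and Gsta2, Gstm3, Ugt1a1, Ugt1a9, Ugt3a1, Sult1b1, Sult1c2 and Sult1d1 in eWAT. Sult3a1 and Sult2a1, both known for higher expression in female than in male liver, were in neither table of these males. Other members passed the limit narrowly. In liver, Sult2a7 was above 0.5 CPM in 3 LF, 6 HF and 5 HFLF libraries and Ugt1a7c in 3, 6 and 2. In eWAT, Ugt2b1 was above it in 7 of 18 libraries, Ugt2b5 in 8, and Sult2a8 and Gstt4 in 9.

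Some members share sequence, which limits how reads can be told apart. The Ugt1a genes use 1 set of common exons behind separate first exons. Of the exon bases of each annotated Ugt1a gene, 50.3% to 82.7% lie in exons of other genes. These are the other Ugt1a genes and Gm20528, a gene on the opposite strand. Of all stretches of 50 bases in its transcripts, Gstp2 shared 54.3% with other genes, Gstp1 above all, Gsta2 49.8% with Gsta1 and others, Ugt2b38 37.4% and Ugt2b37 18.3% with Ugt2b5 and each other, and Gstm3 28.8% with Gstm1 and others. Exons of Gstm5, Gstz1, Sult1a1 and the Ugt1a genes overlap genes on the opposite strand and those of Gstt3 the gene Gm20441 on its own strand. Whether counting used the strand is not stated, so values of these members are uncertain to that extent.

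The promoters of 4 members on which the results below turn are shown as RefSeq gives them on GRCm38.p6, 250 bases before to 50 bases after the transcription start, 5′ to 3′ on the gene's strand. Gsta3, Mgst1 and Gstt1 fell in eWAT of HF mice, and Ugt3a1 rose in their liver. Capitals mark matches, on either strand, to the 4 motifs searched.
Gsta3 (chr1:21240335-21240634, plus strand): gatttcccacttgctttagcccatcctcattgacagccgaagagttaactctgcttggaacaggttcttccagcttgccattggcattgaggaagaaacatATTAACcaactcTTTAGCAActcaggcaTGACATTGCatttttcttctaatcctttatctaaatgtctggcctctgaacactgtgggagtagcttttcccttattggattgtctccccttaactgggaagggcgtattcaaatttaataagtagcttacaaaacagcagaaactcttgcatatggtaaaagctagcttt
Mgst1 (chr6:138140277-138140576, plus strand): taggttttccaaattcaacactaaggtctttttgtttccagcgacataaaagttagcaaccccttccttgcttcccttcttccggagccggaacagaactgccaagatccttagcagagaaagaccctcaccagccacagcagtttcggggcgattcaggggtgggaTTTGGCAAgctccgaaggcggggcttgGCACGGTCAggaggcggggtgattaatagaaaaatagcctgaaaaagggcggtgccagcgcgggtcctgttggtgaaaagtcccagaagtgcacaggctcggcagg
Gstt1 (chr10:75797682-75797981, minus strand): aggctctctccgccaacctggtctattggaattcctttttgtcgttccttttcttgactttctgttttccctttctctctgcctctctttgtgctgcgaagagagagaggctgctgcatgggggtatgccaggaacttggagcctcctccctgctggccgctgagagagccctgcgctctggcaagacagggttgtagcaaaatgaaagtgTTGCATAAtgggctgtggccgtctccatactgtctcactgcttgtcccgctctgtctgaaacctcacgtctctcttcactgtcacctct
Ugt3a1 (chr15:9279579-9279878, plus strand): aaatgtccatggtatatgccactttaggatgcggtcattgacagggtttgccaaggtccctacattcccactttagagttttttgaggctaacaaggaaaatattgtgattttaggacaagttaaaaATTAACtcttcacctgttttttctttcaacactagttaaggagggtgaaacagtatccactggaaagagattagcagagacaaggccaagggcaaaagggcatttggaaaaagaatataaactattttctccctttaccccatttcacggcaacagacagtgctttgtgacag

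The motifs were TGACNNNGC, the core of the antioxidant response element bound by NRF2, GTTAAT, the core of an HNF1 site, TTGCNNAA, a C/EBP type site, and GCGTG, the core bound by the Ah receptor, each searched on both strands. The Gsta3 window holds the antioxidant element at bases 130 to 138, an HNF1 core at 102 to 107 and a C/EBP type site at 114 to 121, counted from 1 at the 5′ end. In the Mgst1 window shown, the antioxidant element lies on the opposite strand at bases 195 to 203 and a C/EBP type site at 168 to 175. RefSeq gives a further Mgst1 window, chr6:138141337-138141636, which held no match to the motifs. The Gstt1 window has a C/EBP type site at 212 to 219, and the Ugt3a1 window an HNF1 core at 128 to 133. RefSeq windows matched 59 of the 67 members, and 4 of the 59 held the antioxidant element (Gsta3, Gstm5, Gstm7 and Mgst1) against 12.4% of all 32851 windows. The HNF1 core was in 14 members (7.1% of all windows), the C/EBP type site in 14 (10.8%) and the Ah receptor core in 12 (32.4%). The 59 members had 71 windows, and a member counted if any of its windows matched. The percentages are of single windows, so the counts and percentages differ in unit. A match describes letters and not binding, and the C/EBP and HNF1 matches were counted without regard to overlap with other motifs.

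The comparison of HF with LF in eWAT asked what 18 weeks of high-fat diet changed in the fat pad. Conjugating enzymes were mostly lower in HF: 15 of the 33 measured members fell and 2 rose, where 20.2% of all 16690 genes fell and 20.6% rose (40.8% in either direction). With upper-quartile factors 23.4% of genes fell and 18.3% rose, and the 15 falls remained while 1 rise, Ugt3a2, was lost. The members' median log2 fold change was -0.70, against -0.02 over all genes. Falls were found in each of the alpha, mu, pi and theta classes, in the microsomal enzymes, and among the sulfotransferases. The groups did not overlap for 8 of the 33 members, against 15.8% of all genes.

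Both measured alpha-class genes fell. Gsta3 (ENSMUSG00000025934, chr1:21240589-21265661), whose product detoxifies the epoxide of aflatoxin in mice, measured 114 to 299 CPM (median 197) in LF, 15.2 to 87 CPM (median 40.4) in HF and 101 to 199.7 CPM (median 151) in HFLF. All 6 HF libraries lay below all LF libraries, and HF libraries 3 and 4 were lowest. The fall was -2.17 ± 0.41, adjusted p = 0.000566. Gsta4 (ENSMUSG00000032348, chr9:78182774-78209349), which conjugates 4-hydroxynonenal, an aldehyde of lipid peroxidation, measured 26 to 46.5 CPM (median 36.3) in LF, 1.48 to 15.5 CPM (median 5.99) in HF and 13.8 to 29.6 CPM (median 23.6) in HFLF. Again the LF and HF libraries did not overlap, and the fall was -2.44 ± 0.39, adjusted p = 0.000184, a mean 5.44-fold lower level in HF.

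In the theta class, which acts on small halogenated compounds and hydroperoxides, 3 of the 4 measured genes fell. Gstt1 (ENSMUSG00000001663, chr10:75783813-75798584) had the smallest p of all members, with 75.8 to 94.4 CPM (median 84) in LF, 16 to 36.9 CPM (median 31.1) in HF and 54.7 to 92.5 CPM (median 62.4) in HFLF. Every HF library was below every LF and HFLF library, and the fall was -1.54 ± 0.17, adjusted p = 2.44e-05. Gstt3 (ENSMUSG00000001665, chr10:75774115-75781414) gave 14.7 to 26.3 CPM (median 20) in LF, 8.82 to 10.5 CPM (median 10.3) in HF and 14.3 to 27 CPM (median 19.1) in HFLF, with HF libraries close to each other and below all others (-1.02 ± 0.15, adjusted p = 0.000108). Gstt2 (ENSMUSG00000033318, chr10:75831114-75837424) gave 44.5 to 72.6 CPM (median 62) in LF, 22.9 to 55.9 CPM (median 39.3) in HF and 56.2 to 94.5 CPM (median 72.6) in HFLF, and its HF range reached into the LF range (-0.63 ± 0.18, adjusted p = 0.00944). Gstt4, known from testis, did not pass: it was 0.352 to 10.8 CPM (median 1.09) in LF and 0 to 19.3 CPM (median 0.427) in HF, where HF library 1 held the highest value. These genes lie in 1 cluster on chromosome 10.

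Of the 3 pi-class genes Gstp1 (ENSMUSG00000060803, chr19:4035407-4037985), which acts on a wide range of electrophiles, fell. It measured 94.8 to 133 CPM (median 113) in LF, 53.2 to 84.7 CPM (median 66.6) in HF and 88.2 to 105 CPM (median 94) in HFLF, so that the HF libraries lay below all others (-0.75 ± 0.12, adjusted p = 0.000164). Gstp2 and Gstp3 were low in every diet, at 1.11 to 3.45 and 0.24 to 2.14 CPM, and did not pass. All 3 microsomal genes fell. Mgst3 (ENSMUSG00000026688, chr1:167371966-167393841) measured 149 to 253 CPM (median 185) in LF, 63.4 to 145 CPM (median 98.6) in HF and 176 to 203 CPM (median 185) in HFLF, with all HF below all LF libraries (-0.88 ± 0.17, adjusted p = 0.000857). Mgst1 went from 687 ± 134 CPM in LF to 392 ± 129 in HF (mean ± SD, n = 6; -0.81 ± 0.19, adjusted p = 0.00283), and Mgst2, which makes leukotriene C4, from 21.6 ± 5.13 to 13.2 ± 5.53 (-0.70 ± 0.24, adjusted p = 0.0278).

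Of the mu class, Gstm6 and Gstm7 fell and 4 genes did not pass. Gstm1 and Gstm2, its abundant genes, were 398 ± 80.7 and 135 ± 16.1 CPM in LF and 316 ± 158 and 110.0 ± 37.2 in HF. The size of the Gstm7 change (-3.79 ± 0.93, adjusted p = 0.00405) depended on single libraries: LF libraries 4 and 5 held 259 and 82.7 CPM, against 6.83 to 11.2 in the other LF libraries. All 6 HF libraries, at 2.71 to 6.18 CPM, still lay below all LF libraries. Without the 6 eWAT libraries named below its change was -1.15 and passed (adjusted p = 0.008). Gstm6 (-2.13 ± 0.57, adjusted p = 0.00731) was high in the same libraries, at 55.7 and 26 CPM, as was Gstm5, which did not pass, at 346 and 161. Without LF library 4 the change was -2.41 for Gstm7 and -1.34 for Gstm6, and both passed. Epcam, an epithelial gene, was 125 and 51.1 CPM in those libraries and 29.8 in HFLF library 4, where Gstm7 was 59.5, and at most 7.05 elsewhere. The list of epithelial markers of bile ducts, with all 6 genes measured, summed to 353, 180.5 and 110.2 CPM in the 3 libraries and to 18.8 to 137 in the others, and its part in the result was not tested. With limma voom and quality weights neither Gstm7 (-1.65) nor Gstm6 (-1.15) passed.

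Among the sulfotransferases, Sult1a1, Sult1e1 and Sult5a1 fell. Sult1e1 (ENSMUSG00000029272, chr5:87575969-87591594), which inactivates estrogens, measured 24.8 to 91.3 CPM (median 50.8) in LF, 11.2 to 21.7 CPM (median 17.2) in HF and 16.4 to 62.6 CPM (median 31.7) in HFLF, with every HF library below every LF library (-1.67 ± 0.31, adjusted p = 0.00051). Sult1a1 went from 202 ± 54.6 to 113 ± 46.3 CPM (-0.83 ± 0.25, adjusted p = 0.0151) and Sult5a1 from 8.42 ± 2.51 to 5.3 ± 1.25 (-0.66 ± 0.24, adjusted p = 0.0371). Of the 6 Ugt genes, Ugt1a6a, a phenol glucuronosyltransferase, fell from 3.82 ± 0.733 to 2.3 ± 0.471 CPM (-0.73 ± 0.20, adjusted p = 0.00896). The 2 rises were Gsto1, an omega-class thiol transferase and dehydroascorbate reductase, from 51.5 ± 9.01 to 74.1 ± 12.5 CPM (0.53 ± 0.14, adjusted p = 0.00628), and Ugt3a2, which transfers glucose, at a low level, from 2.29 ± 1.53 to 4.4 ± 1.63 (0.93 ± 0.37, adjusted p = 0.0496). Gstk1 and Gstz1 did not pass, at 40.1 ± 9.34 and 727 ± 168 CPM in LF and 27.8 ± 9.85 and 501 ± 214 in HF.

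Marker levels moved with these falls. The 8 adipocyte markers, all measured, summed to 33998 to 65588 CPM in LF and 15231 to 50378 CPM in HF, and the 9 macrophage markers, all measured, to 554 to 979 CPM and 1333 to 10639.9 CPM. HF libraries 1, 3 and 4 had the lowest adipocyte sums (24406, 15231 and 21272 CPM) and the highest macrophage sums (5463, 10639.9 and 6991 CPM). HF libraries 2, 5 and 6 had adipocyte sums inside the LF range (37938, 50378 and 44774 CPM) and macrophage sums above it (3265, 1333 and 1822 CPM). In these 3 libraries Gsta3 was 57, 87 and 73.7 CPM, below the lowest LF library (114), and Gstt1 was 33.3, 36.9 and 31.2 CPM, also below the LF range. Mgst1 lay inside its LF range in HF libraries 5 and 6 (547 and 529.7 CPM) and below it in HF library 2 (426). Sult1a1 lay inside its LF range in HF libraries 2 and 5 (154 and 179 CPM) and below it in HF library 6 (112). The parts of cell composition and of the clock list in the falls were not tested.

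**Figure D2:**
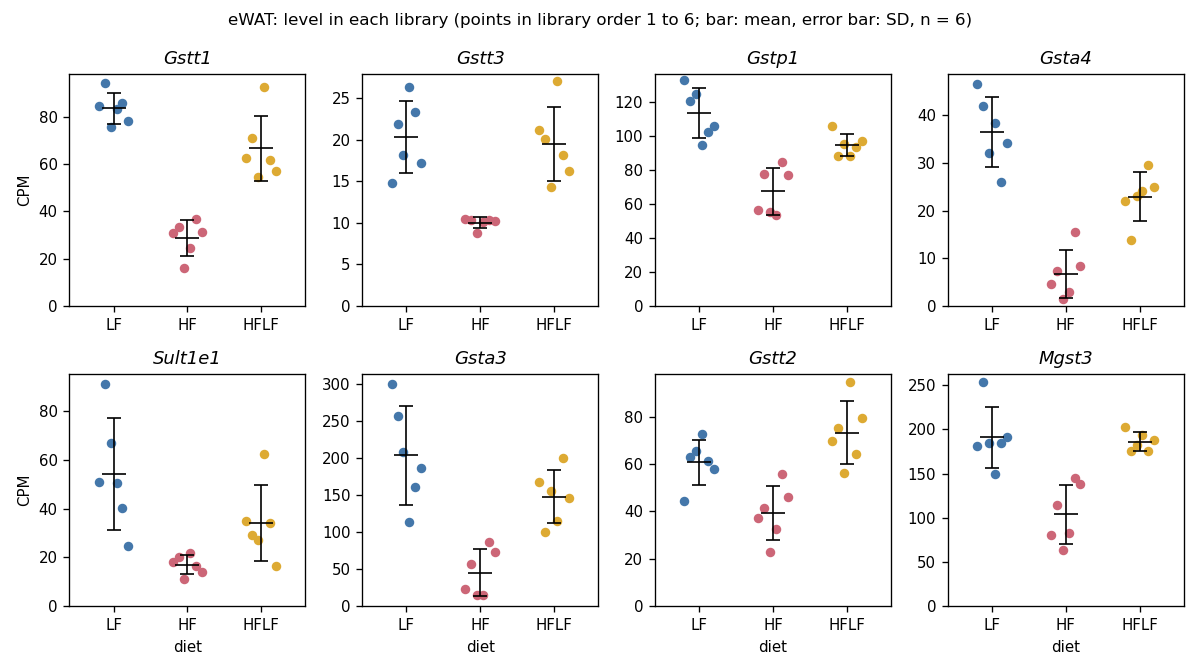
Level (CPM, linear axis from 0) in each eWAT library of the 8 called members with the smallest p, by diet. Points are libraries 1 to 6 in order, the bar is the mean and the error bar the SD (n = 6). HF libraries lie below all LF libraries for each gene except Gstt2, and below all HFLF libraries for each gene except Gsta4 and Sult1e1.

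Ugt2b1, Ugt2b5 and Sult2a8, abundant in liver, had at most 8.16 CPM in eWAT and did not pass in any eWAT comparison. Their highest eWAT values were in LF library 5, at 4.06, 5.25 and 8.16 CPM. The 8 hepatocyte markers, all measured, summed to 1057 CPM in that library, 516 in LF library 3, 268 in LF library 4 and 21.4 to 231 CPM in the others. Gsto2 and Gstt4 were highest in HF library 1, at 14.9 and 19.3 CPM, followed by LF library 4 (7.74 and 10.8) and HFLF library 6 (6.85 and 5.28). Of 17 epididymal markers 2 were in the eWAT table, with a summed level of 218 CPM in LF library 3, 14.7 in HF library 1, and 0 to 7.47 in the others. Without the 6 eWAT libraries that an earlier analysis of these data left out (3, 4 and 5 of LF, 1 of HF, 4 and 6 of HFLF), edgeR called 13 members lower and 2 higher in HF, and 13 of the 17 calls remained, with 14.6% of genes lower and 16.6% higher. Gstm6, Gstt2, Mgst2 and Sult5a1 were lost and Gstm5 and Gsto2 added. Leaving out 1 library ended the calls of Mgst2 (without LF library 1, 2 or 3 or HF library 1 or 2, -0.67 to -0.61), Sult5a1 (without LF library 2, 3, 4 or 5 or HF library 3, 4, 5 or 6, -0.68 to -0.53) and Ugt3a2 (without any of 14 of the 18 libraries, the others being library 5 of LF, 4 and 6 of HF and 4 of HFLF, 0.76 to 0.97).

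Comparing HFLF with HF asked whether the enzymes differ after 9 weeks back on low-fat diet. In eWAT 13 of the 33 measured members were higher in HFLF and 0 were lower, where 10.7% of all genes were higher and 14.7% lower (25.4% in either direction). The count of 0 lower stands beside 1 member lower at an unadjusted p under 0.05, and DESeq2 and limma voom also called 0 lower. The median log2 fold change was 0.52 for the members and -0.001 for all genes, and the groups did not overlap for 8 members, against 9.44% of all genes. HF libraries serve in this comparison and in that of HF with LF, so that the comparisons are not independent and their values are set side by side. Gstt1 was higher in HFLF (1.21 ± 0.16, adjusted p = 0.000453) after -1.54 ± 0.17 in HF against LF, Gsta3 (1.70 ± 0.40, adjusted p = 0.00637) after -2.17 ± 0.41, and Gsta4 (1.77 ± 0.38, adjusted p = 0.00419) after -2.44 ± 0.39. Gstt3 (0.96 ± 0.15), Gstt2 (0.90 ± 0.18), Mgst3 (0.84 ± 0.17) and Gstp1 (0.49 ± 0.12) were higher with adjusted p of 0.000911, 0.00264, 0.00333 and 0.00735. Sult1a1 (0.94 ± 0.25), Sult1e1 (1.01 ± 0.30), Gstk1 of mitochondria and peroxisomes (0.73 ± 0.23), Mgst1 (0.58 ± 0.19), Ugt1a6a (0.63 ± 0.20) and Sult5a1 (0.72 ± 0.24) complete the 13.

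Without the 6 eWAT libraries named above, 5 members were higher in HFLF, of which Gstt1, Gstt3 and Mgst3 remained from the 13 and Gstm5 and Gstm7 were added. Gsta3 then had 1.65 with an adjusted p of 0.0542, and the background was 3.73% of genes higher. With single libraries left out, calls were lost for Gstk1 (HF library 1 or 4 or HFLF library 1 or 5, 0.67 to 0.68), Mgst1 (HF library 1, 3 or 4 or HFLF library 1, 5 or 6, 0.47 to 0.57), Sult1e1 (HF library 3 or HFLF library 4, 0.74 to 0.91), Sult5a1 (HF library 3, 4 or 6 or HFLF library 2, 3 or 4, 0.59 to 0.74) and Ugt1a6a (HF library 2, 3, 4 or 6 or HFLF library 2 or 5, 0.51 to 0.63).

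Between HFLF and LF in eWAT, edgeR called 0 of the 33 members, as did DESeq2 and limma voom, with 4 at an unadjusted p under 0.05 (Gsto1, Gstp1, Sult1e1 and Gstm7). Of all genes 0.563% were called in this comparison. A p that misses the threshold does not show that the enzymes were alike, and the 95% intervals of the log2 fold change (normal approximation from the SE) were -1.23 to 0.30 for Gsta3, -1.39 to 0.05 for Gsta4, -0.64 to -0.01 for Gstt1, -0.59 to 0.14 for Mgst1, -0.38 to 0.60 for Sult1a1 and -1.25 to -0.07 for Sult1e1. The normal approximation makes the intervals somewhat narrower than the F test would. That of Gstt1 thus excluded 0 although its unadjusted p was not under 0.05. For Gsta4 the ranges of HFLF and LF overlapped, with the HFLF median below the lowest LF library.

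In liver most of the members called in HF against LF were higher in HF. Of the 44 measured members 13 rose and 4 fell in HF, where 16.3% of all 14052 genes rose and 18.5% fell (34.8% in either direction). With upper-quartile factors 21.0% of genes rose and 13.3% fell, and 16 members rose and 4 fell. The median log2 fold change was 0.20 over the members and 0.001 over all genes. The HF and LF libraries did not overlap for 4 of the 44 members and for 1539 of all 14052 genes, a share no higher for the members. Rises came from the theta, kappa, zeta and microsomal glutathione transferases, from 4 of 7 sulfotransferases and from 4 of 16 Ugt genes. The falls were Gstp1 and Gstp2 of the pi class and Ugt2b37 and Ugt2b38, while Ugt2b36 rose. The calls were made with LF libraries 1 to 4, in which acute-phase and metallothionein genes were high. LF libraries 1 to 4 also had the lowest clock sums of LF. Against LF libraries 5 and 6 alone, the one fit run on these libraries, edgeR called 0 of the 44 members (4 at an unadjusted p under 0.05), with 2.11% of all genes called.

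Both Ugt3 genes rose. Ugt3a1 (ENSMUSG00000072664, chr15:9276888-9315032), which transfers N-acetylglucosamine to bile acids, measured 19 to 37.7 CPM (median 23.3) in LF, 43.1 to 63.8 CPM (median 49.1) in HF and 26.8 to 40.4 CPM (median 32.2) in HFLF. All HF libraries were above all LF and HFLF libraries (0.97 ± 0.16, adjusted p = 0.000356). Within LF, libraries 1 to 4 held 19 to 24.8 CPM and libraries 5 and 6 37.7 and 33.7, and against the latter 2 the change was 0.53 (adjusted p = 0.0802). Ugt3a2 (ENSMUSG00000049152, chr15:9335550-9370955), its neighbour on chromosome 15, measured 273 to 321 CPM (median 283) in LF, 328 to 413 CPM (median 375) in HF and 259 to 319 CPM (median 285) in HFLF, again with HF above all other libraries (0.35 ± 0.07, adjusted p = 0.00182). Without LF libraries 1 to 4 its change was 0.25. In liver the Ugt3a2 level per kb was 102 CPM and that of Ugt3a1 13.8.

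Among the glucuronosyltransferases Ugt2b36 rose, Ugt2b37 and Ugt2b38 fell, and Ugt1a6a rose. Ugt2b36 (ENSMUSG00000070704, chr5:87065927-87092555) measured 311 to 466 CPM (median 393) in LF, 399.7 to 564 CPM (median 481) in HF and 324 to 421 CPM (median 355) in HFLF, with overlap between LF and HF (0.32 ± 0.11, adjusted p = 0.0275). Ugt1a6a rose from 10.3 ± 4.57 to 19.4 ± 4.84 CPM (0.92 ± 0.25, adjusted p = 0.00986). Ugt2b38 fell from 21.4 ± 9.29 to 5.13 ± 4.03 CPM (-2.10 ± 0.75, adjusted p = 0.0403) and Ugt2b37 from 3.87 ± 1.9 to 1.45 ± 0.69 (-1.42 ± 0.43, adjusted p = 0.0173). Ugt2b38 was 23 to 30.2 CPM in LF libraries 1 to 4 and 7.05 and 13.2 in LF libraries 5 and 6. It was 26.1 and 33.4 in HFLF libraries 3 and 4, whose acute-phase sums, 14057 and 13690.2 CPM, were the highest of HFLF. Their clock sums, 543 and 719 CPM, were the lowest of HFLF. In the other HFLF libraries Ugt2b38 was 1.26 to 11.9 CPM, with acute-phase sums of 11065 to 12182. The part of either list in the Ugt2b38 level was not tested. Ugt1a1, the bilirubin enzyme (89.1 ± 24.8 CPM in LF and 115 ± 17.5 in HF), and Ugt1a6b (33.4 ± 3.4 and 38.3 ± 3.52) did not pass, nor did Ugt1a9 (10.2 ± 2.78 and 9.16 ± 5.94). The abundant Ugt2b5 (448 ± 101 and 417 ± 42.3), Ugt2b1 (401 ± 99.5 and 346 ± 93.4), Ugt2b34 (336 ± 42.2 and 349 ± 16.6) and Ugt2b35 (109 ± 20.9 and 107 ± 18.8) did not pass either.

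Of the sulfotransferases Sult1b1, Sult1c2, Sult2a7 and Sult5a1 rose. Sult5a1 (ENSMUSG00000000739, chr8:123140192-123158315) measured 5.86 to 16.9 CPM (median 7.77) in LF, 8.46 to 30.2 CPM (median 26.7) in HF and 11.8 to 18.4 CPM (median 15.8) in HFLF, and HF library 1, at 8.46 CPM, lay inside the LF range (1.36 ± 0.29, adjusted p = 0.00232). Without LF libraries 1 to 4 its change was larger and did not pass (1.71, adjusted p = 0.051). Sult1b1 (ENSMUSG00000029269, chr5:87513339-87538195), which acts on phenols and thyroid hormones, measured 5.85 to 17.9 CPM (median 10.9) in LF, 20.3 to 31.7 CPM (median 24.7) in HF and 7.14 to 23.6 CPM (median 20.2) in HFLF, with all HF above all LF libraries (1.10 ± 0.28, adjusted p = 0.0062). Sult1c2 rose from 2.25 ± 1.13 to 5.32 ± 1.7 CPM (1.24 ± 0.37, adjusted p = 0.015), and Sult2a7 from 0.511 ± 0.315 to 1.15 ± 0.18, near the limit of the table (1.17 ± 0.39). The abundant Sult2a8, a bile acid sulfotransferase (510.1 ± 109 CPM in LF and 635 ± 167 in HF), Sult1a1 (257 ± 54.1 and 273 ± 77.2) and Sult1d1, which acts on catecholamines (104 ± 40.3 and 111 ± 29.9), did not pass.

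Among the glutathione transferases outside the pi class, 5 rose. Gstk1 (ENSMUSG00000029864, chr6:42245935-42250447) measured 66.3 to 98.3 CPM (median 72.4) in LF, 87.3 to 154 CPM (median 117) in HF and 69.7 to 98.5 CPM (median 83.7) in HFLF, with HF library 5 inside the LF range (0.67 ± 0.13, adjusted p = 0.00113). Gstt3 rose from 22.6 ± 11 to 46.9 ± 19.7 CPM (1.06 ± 0.33), Gstt1 from 217 ± 34 to 281 ± 49.3 (0.37 ± 0.13), Gstz1 from 531 ± 89 to 699 ± 69.1 (0.40 ± 0.11, adjusted p = 0.0094) and Mgst1 from 2027 ± 186 to 2476 ± 269 (0.29 ± 0.09, adjusted p = 0.0142). In the alpha and mu classes 0 of 10 genes passed with edgeR, with Gsta3 and Gstm2 at an unadjusted p under 0.05, and DESeq2 and limma voom each called Gsta3. Here Gsta3 was 1114 ± 248 CPM in LF and 1530.4 ± 351 in HF, Gstm1 739 ± 210.4 and 722 ± 229, Gstm2 38.3 ± 6.52 and 52.2 ± 16.7, Gstm3 31.5 ± 13.4 and 32.9 ± 27, and Gsta2 4.63 ± 1.44 and 4.59 ± 2.23. Gstt2 passed with DESeq2 and with limma voom, as a rise. Gsto1 (56.6 ± 5.97 and 65 ± 10.3 CPM) and Mgst3 (8.73 ± 3.37 and 14.3 ± 7.76) did not pass.

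In the pi class Gstp1 and Gstp2 fell and Gstp3 did not pass. Gstp1 (ENSMUSG00000060803, chr19:4035407-4037985), among the most abundant transferases of male mouse liver, measured 797 to 1814 CPM (median 1628) in LF, 318 to 1127 CPM (median 799) in HF and 599 to 1238 CPM (median 795) in HFLF. LF library 5 lay inside the HF range at 797 CPM, and the other LF libraries lay above all HF libraries (-1.04 ± 0.27, adjusted p = 0.00797). Gstp2 (ENSMUSG00000038155, chr19:4040285-4046023), which lies beside Gstp1, measured 0.753 to 48 CPM (median 16.3) in LF, 0.605 to 1.55 CPM (median 1.24) in HF and 0.557 to 1.95 CPM (median 1.13) in HFLF (-3.93 ± 0.70, adjusted p = 0.000909). Its LF libraries 1 to 4 held 24.5, 48, 8.2 and 24.7 CPM, and libraries 5 and 6 0.753 and 3.85. Without libraries 1 to 4 the change of Gstp2 was -0.93 and that of Gstp1 -0.71, and neither passed (adjusted p = 0.311 and 0.346). Gstp3 did not pass in this comparison (17 ± 2.91 CPM in LF and 18.5 ± 3.15 in HF).

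**Figure D3:**
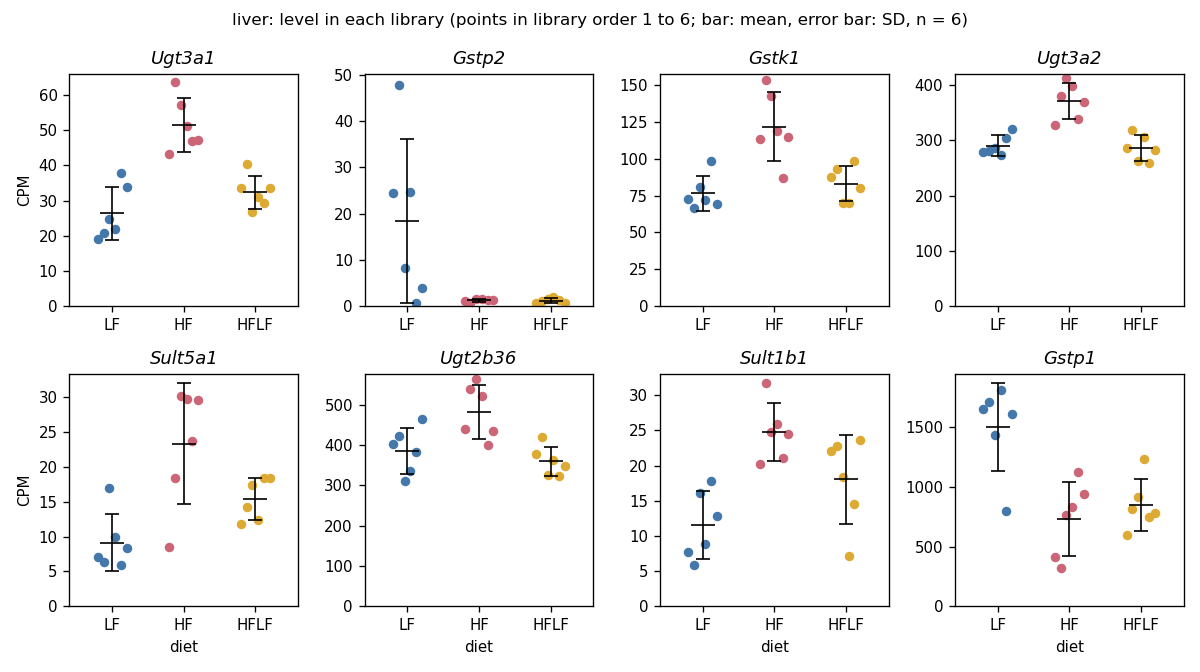
Level (CPM, linear axis from 0) in each liver library of the 8 called members with the smallest p, by diet, drawn as for eWAT (points are libraries 1 to 6 in order, the bar is the mean, the error bar the SD, n = 6). Ugt3a1, Ugt3a2 and Sult1b1 have HF libraries above all LF libraries, and the LF points of Gstp2 fall into libraries 1 to 4, from 8.2 to 48 CPM, and libraries 5 and 6, at 0.753 and 3.85 CPM.

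The 17 liver calls were 9 without LF libraries 1 and 2 (7 rises and 2 falls) and 0 without LF libraries 1 to 4. All 9 were shared with the 17, with 8.86% of genes higher and 10.7% lower. The parts of the acute-phase state and of the clock list in the result were not tested. All 11 acute-phase and metallothionein markers were measured. Among them, Saa1 was at 1057 to 3778 CPM in LF libraries 1 to 4 and 15.3 and 28.3 in LF libraries 6 and 5. Leaving out 1 library ended the calls of Gstt1 (LF library 2 or 4 or HF library 2, 0.29 to 0.34), Gstt3 (HF library 2, 0.82), Sult2a7 (LF library 1, 2 or 4 or HF library 3, 0.98 to 1.09), Ugt2b36 (LF library 3 or 4 or HF library 2, 3 or 4, 0.27 to 0.30) and Ugt2b38 (LF library 1, 2, 3 or 4 or HF library 1, 2, 3 or 6, -2.14 to -1.84).

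HFLF against HF in liver does not draw on the LF libraries, apart from the shared estimate of the spread. Gstk1, Ugt2b36, Ugt3a1 and Ugt3a2 were lower in HFLF and 0 of the 44 members were higher, where 3.05% of all genes were lower and 2.18% higher (5.23% in either direction). The 0 stands beside 2 members higher at an unadjusted p under 0.05, 0 called higher by DESeq2 and 1, Ugt1a5, by limma voom. Ugt3a2 changed by -0.38 ± 0.07, adjusted p = 0.010, Ugt3a1 by -0.67 ± 0.15, adjusted p = 0.0232, Gstk1 by -0.55 ± 0.13, adjusted p = 0.0232 and Ugt2b36 by -0.42 ± 0.11, adjusted p = 0.0308. For the pair of Ugt3 genes all HFLF libraries lay below all HF libraries, and they were the 2 of 44 members whose groups did not overlap (background 3.86% of genes). The median log2 fold change was -0.28 over the members and -0.002 over all genes. Without LF libraries 1 to 4 in the fit the 4 calls remained and Gsta2, Gsto1 and Mgst1 were added as falls, 7 in all, with 5.14% of all genes lower. DESeq2 called 8 lower and limma voom 8. The count of 4 was 1, 1, 2 and 9 without HF libraries 2, 3, 4 and 5 and 8, 2 and 2 without HFLF libraries 2, 5 and 6, and Ugt3a2 was the member that kept its call without each of the 18 libraries.

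HFLF against LF in liver gave 5 calls among the 44 members, 1 higher and 4 lower, where 10.2% of all genes were higher and 12.4% lower (22.6% in either direction). With edgeR all 5 were glutathione transferases, but other methods also called Sult and Ugt members. DESeq2 kept the 5 and added Gstt2, Sult5a1, Ugt1a6a and Ugt2b37. With limma voom Gsta4 was lost and Gstt2, Sult1b1, Ugt1a5, Ugt1a6a and Ugt2b37 were added. Gstp3 was higher (23.2 ± 4.09 CPM in HFLF and 17 ± 2.91 in LF; 0.45 ± 0.13, adjusted p = 0.0221). Gstp2 was lower (-3.97 ± 0.71, adjusted p = 0.00184), as were Gstp1 (-0.82 ± 0.27, adjusted p = 0.0371), Gsta2 (-1.07 ± 0.32, adjusted p = 0.0223) and Gsta4 (-0.69 ± 0.23, adjusted p = 0.0427). The medians were -0.01 over the members and -0.001 over all genes. Without LF libraries 1 to 4 edgeR called 0 members (5 at an unadjusted p under 0.05) and 0.185% of genes, and without LF libraries 1 and 2 it called Gstp2 lower, with 5.59% of genes lower. With 1 library left out the count was 3, 1, 3 and 10 without LF libraries 1, 2, 4 and 5 and 2, 2 and 3 without HFLF libraries 1, 5 and 6, and Gstp2 kept its call without each of the 18 libraries. The call of Gsta4 ended without any of 9 libraries, that of Gstp1 without any of 8, Gstp3 4 and Gsta2 3. Gsta4 was also lost with upper-quartile factors and in the 2-group fit.

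The difference between the tissues was tested itself, as an interaction over the 13206 genes in both tables, which hold 28 members. The change from LF to HF was higher in liver than in eWAT for 17 members and lower for 1, where 24.6% of genes were higher and 21.0% lower (45.6% in either direction). The median difference (liver minus eWAT, log2) was 1.32 over the members and 0.04 over the genes. Gstt1 had the smallest p (1.96 ± 0.22, adjusted p = 1.32e-07), with 0.37 ± 0.13 in liver and -1.54 ± 0.17 in eWAT. Gsta3 (2.67 ± 0.45, adjusted p = 3.01e-05) was higher in 5 of 6 HF livers and lower in 6 of 6 HF fat pads, against the LF means. For Gstt1, Gstt3 (2.13 ± 0.38), Mgst1 (1.15 ± 0.22), Sult5a1 (2.07 ± 0.39) and Ugt1a6a (1.70 ± 0.33) the change passed in both tissues and in opposite directions. Gstp1 was lower in HF in both tissues (-1.04 ± 0.27 and -0.75 ± 0.12), and its difference did not pass (-0.23 ± 0.30, adjusted p = 0.56). Without liver LF libraries 1 to 4, none of the liver changes of these members, Gstp1 included, passed within liver. In eWAT the call of Sult5a1 was lost with limma voom, in the 2-group fit and with the replicate block. It was also lost without the 6 eWAT libraries and without any 1 of 8 single libraries. The 1 lower difference was Gstp2 (-3.77 ± 0.72). Without liver LF libraries 1 to 4, 10 differences passed, all higher in liver and all among the 17 (Gsta3, Gsta4, Gstk1, Gstm7, Gstt1, Gstt3, Mgst1, Mgst3, Sult5a1 and Ugt1a6a), with 12.2% of genes higher. Without the 6 eWAT libraries 14 were higher and 2 lower (18.2% and 21.2% of genes), and Sult2a8 and Ugt2b5 turned sign. For HFLF against LF, Gstp2 was the 1 member whose difference passed (-4.29 ± 0.72), of 28, with 3.60% of genes lower and 4.96% higher (8.56% in either direction). Without liver LF libraries 1 to 4 it did not pass, with 0.00757% of genes called. Nor did the Gstp2 difference pass with limma voom and the replicate block (-3.47).

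**Figure D4:**
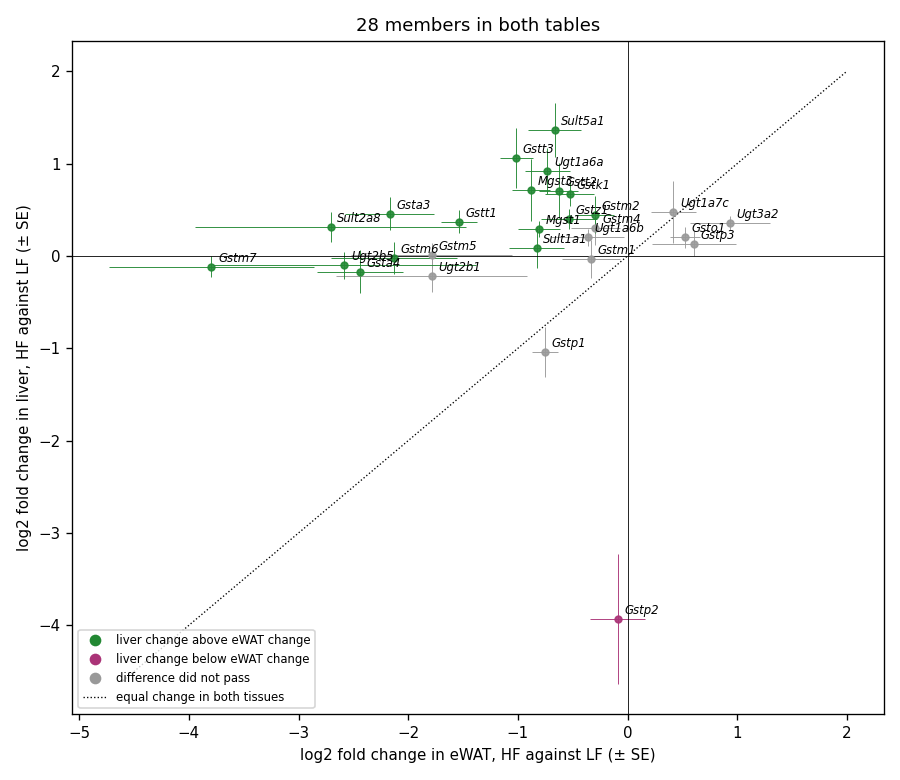
Log2 fold change from LF to HF (± SE) in eWAT (horizontal) and liver (vertical) of the 28 members in both tables, coloured by the test of the difference. Most points lie above the dotted line of equal change and left of 0, Gstp1 lies near the line below 0 on both axes, and Gstp2 lies below it.

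**Figure D5:**
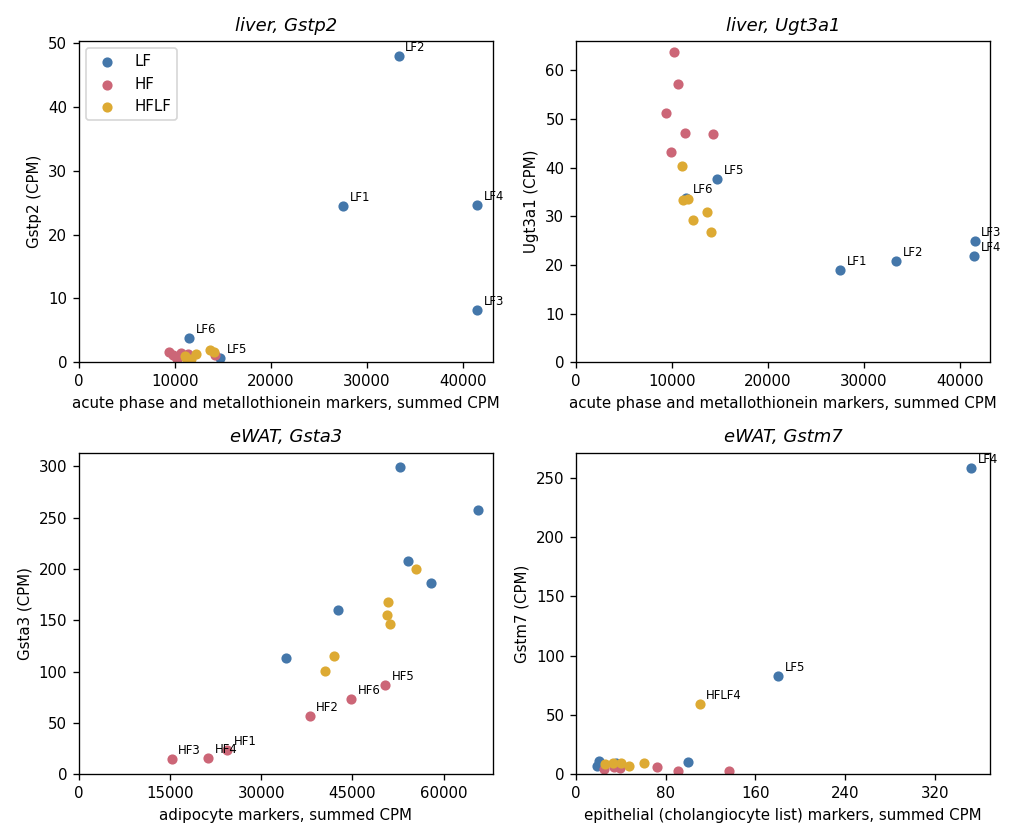
Member level (CPM) against the summed CPM of a marker list in each library, coloured by diet, for Gstp2 and Ugt3a1 in liver (acute-phase and metallothionein list) and Gsta3 (adipocyte list) and Gstm7 (epithelial list) in eWAT. LF libraries 1 to 4 stand apart on the acute-phase axis, all HF points of Gsta3 lie below the LF and HFLF points, and 3 libraries carry the high Gstm7 values.

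Genes that supply, export and regulate conjugation were taken from lists set up beside the families, and every change given for them is a log2 fold change ± SE of edgeR. Slc7a11, Gclc, Gclm and G6pdx are on both the glutathione and the NRF2 list. Where measured, they count in each of these lists but only once in the totals. In liver of HF against LF, 38 of the 101 measured genes of the 8 lists were called, near the 34.8% of all genes, so the counts by list are descriptions and not results about the lists. There, 0 of 7 rose and 1 fell in the supply of UDP-glucuronic acid (Slc35b1, a transporter of the endoplasmic reticulum, -0.33 ± 0.10). In PAPS supply and sulfate handling 3 of 10 rose and 0 fell: the PAPS transporter Slc35b2 (0.35 ± 0.07), sulfite oxidase Suox (0.66 ± 0.13) and the sulfate transporter Slc26a1 (0.53 ± 0.18). Of the glutathione synthesis, breakdown and reduction genes 2 of 19 rose and 3 fell, among them Cbs of transsulfuration (-0.45 ± 0.11), G6pdx, a source of NADPH (-1.10 ± 0.29), and Ggct (0.54 ± 0.15). Of the exporters 4 of 10 rose and 1 fell: Abcg2 (0.50 ± 0.12) and Abcc2 (0.33 ± 0.08) of the bile canaliculus and Abcc3 (1.88 ± 0.45) of the sinusoidal membrane rose. Among enzymes that remove conjugates or hydrolyse esters 1 of 6 rose and 1 fell, namely Arsb (0.35 ± 0.10) and Ces2a (-0.43 ± 0.13). The list of regulators had 5 rises and 5 falls in 23 genes: Nr1i3, the xenobiotic receptor CAR, rose from 37.9 to 157 CPM (2.05 ± 0.35), and the hepatocyte factor Hnf4a (-0.66 ± 0.10) and the NRF2 competitor Bach1 (-0.90 ± 0.17) fell. Of the other conjugating enzymes 6 of 18 rose and 1 fell, and the rises included Acsm3 (0.96 ± 0.18) and thiopurine methyltransferase Tpmt (0.67 ± 0.13). NRF2 targets outside the families went both ways, 3 up and 3 down of 11 (Nqo1 1.29 ± 0.31, Txnrd1 -0.57 ± 0.10). These comparisons use the same LF libraries as those of the members.

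In HFLF against HF liver 10 of the 101 list genes were called, where 5.23% of all genes were. Ugdh, which makes UDP-glucuronic acid, was lower (-0.80 ± 0.19), as were the PAPS synthase Papss1 (-0.50 ± 0.13), Bpnt1 (-0.34 ± 0.07), Suox (-0.57 ± 0.13), the glutathione synthesis genes Gss (-0.50 ± 0.12) and Gclm (-0.36 ± 0.09), the exporter Abcg2 (-0.61 ± 0.12) and the NRF2 targets Aox1 (-0.88 ± 0.16) and Ephx1 (-1.07 ± 0.23). G6pdx was higher (1.50 ± 0.29). In the counts by list, G6pdx and Gclm each stand under both glutathione and NRF2 targets. By list, the counts of higher and lower genes were 0 and 1 of 7 for UDP-glucuronic acid supply, 0 and 3 of 10 for PAPS, 1 and 2 of 19 for glutathione, 0 and 1 of 10 for export, 1 and 3 of 11 for NRF2 targets, and 0 and 0 for removal (6 genes), regulators (23) and other conjugating enzymes (18). Against LF, where 29 of the 101 and 22.6% of all genes were called, HFLF livers had lower Ugdh (-1.05 ± 0.19), Gss (-0.70 ± 0.12), glutathione reductase Gsr (-0.44 ± 0.08), Papss1 (-0.60 ± 0.13), Txnrd1 (-0.66 ± 0.10) and Hmox1 (-1.56 ± 0.35) and higher Ppara (0.76 ± 0.16) and Esrra (0.72 ± 0.12). Counts of higher and lower genes were then 0 and 2 of 7 for UDP-glucuronic acid supply and 2 and 2 of 10 for PAPS. Glutathione had 1 and 5 of 19, export 2 and 2 of 10, and removal 0 and 0 of 6. Regulators had 3 and 4 of 23, other conjugating enzymes 1 and 3 of 18, and NRF2 targets 0 and 3 of 11. Without LF libraries 1 to 4, 0.185% of all genes were called between HFLF and LF.

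The eWAT lists of HF against LF also held changes in both directions, with 46 of their 95 measured genes called against 40.8% of all genes. UDP-glucuronic acid supply had 1 rise and 1 fall of 7 (Slc35b4 0.28 ± 0.07, Ugp2, which makes UDP-glucose, -0.50 ± 0.10), and PAPS supply 3 and 3 of 10 (Slc35b2 0.47 ± 0.07, Slc26a2 0.30 ± 0.08, Suox -1.24 ± 0.21). Of the glutathione genes 2 of 19 rose and 6 fell: Gsr (-0.58 ± 0.08) and Oplah of the gamma-glutamyl cycle (-0.82 ± 0.15) fell, and the peptidase Anpep rose (3.17 ± 0.45). Among exporters 1 of 10 rose and 2 fell (Abcc5 0.25 ± 0.08, and the low-level Abcc6 -2.54 ± 0.86 and Abcc2 -1.92 ± 0.67). Beta-glucuronidase Gusb, a lysosomal enzyme that removes glucuronic acid, rose (1.99 ± 0.29) and the carboxylesterase Ces1d fell (-1.58 ± 0.35), in a list with 2 rises and 2 falls of 5. Regulators fell in 7 and rose in 2 of 21 (Mafg, a partner of NRF2, -0.37 ± 0.08). Among other conjugating enzymes 3 of 15 rose and 6 fell, led by Acsm3 (-4.35 ± 0.69), Hpgds, the glutathione-dependent prostaglandin D synthase of immune cells (3.93 ± 0.66), and Alox5ap of leukotriene synthesis (1.57 ± 0.28). Of the NRF2 targets 5 of 12 rose and 2 fell: heme oxygenase Hmox1 (1.72 ± 0.29) and Slc7a11 (2.14 ± 0.55) rose and Gclc fell (-0.49 ± 0.09). Compared with HF, HFLF fat had 27 of the 95 called, against 25.4% of all genes: Gusb (-1.36 ± 0.29), Hmox1 (-1.33 ± 0.29) and Anpep (-1.91 ± 0.43) were lower and Ugp2 (0.44 ± 0.10), Gsr (0.29 ± 0.08), Ces1d (1.42 ± 0.35) and the glucocorticoid receptor Nr3c1 (0.51 ± 0.12) higher. Between HFLF and LF in eWAT edgeR called 0 of the 95 genes of the 8 lists, with 19 at an unadjusted p under 0.05.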

How the data were processed

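Gene counts deposited by the authors were used as they stood, 18 libraries a tissue, with STAR and GRCm38.p6 named per the submitters' processing notes. No source used here gives the counting tool, annotation release or strand setting. The deposited RPKM tables were not used, because their values are not the RPKM of the gene in their row. Tests were edgeR 4.0.16 quasi-likelihood fits (TMM factors, robust, R 4.3.3) over all genes and the 3 diets of a tissue, with Benjamini-Hochberg adjustment and a threshold of 0.05. The tissue difference was an interaction fitted over 36 libraries and 13206 genes. Fits were tested on simulated data with 200 changed genes.

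Members and lists were chosen with earlier results of these data known. Named were the called members with the smallest p, the 5 most abundant in each tissue, a fixed set, and up to 3 called genes of each pathway list. Alternatives were RLE and upper-quartile factors, DESeq2 1.42.0, limma 3.58.1 voom, filters on low counts, 2-group fits, a replicate block, each library left out, and the libraries that stood apart left out, the last chosen after seeing the data. One gene of the pathway lists is not reported here.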

Additional observations from a re-analysis of the deposited data

Results flagged for a closer look

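Among 48 groups of 6 libraries checked for a library far from its nearest neighbour, 3 held one, and chance gives about 1 in 20. In liver, Sult5a1 was 16.9 CPM in LF library 3, above the other LF libraries. Gstp1 was 797 CPM in liver LF library 5, below the other LF libraries. In eWAT, Gstt3 was 8.82 CPM in HF library 3, below the other HF libraries.

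The change from LF to HF differed between liver and eWAT, by the interaction test, for 18 members. The difference (liver minus eWAT, log2) among glutathione transferases was 2.67 for Gsta3, 2.33 for Gsta4, 0.81 for Gstm2, 2.21 for Gstm6, 3.77 for Gstm7, -3.77 for Gstp2, 1.96 for Gstt1, 1.39 for Gstt2, 2.13 for Gstt3, 1.25 for Gstk1 and 0.98 for Gstz1. It was 1.15 for Mgst1 and 1.65 for Mgst3. Sulfotransferases gave 0.97 for Sult1a1, 3.12 for Sult2a8 and 2.07 for Sult5a1, and glucuronosyltransferases 1.70 for Ugt1a6a and 2.60 for Ugt2b5. The Sult2a8 and Ugt2b5 values come with eWAT levels near the limit of detection and with the highest hepatocyte marker sum in the same eWAT library, LF library 5, and neither passed without the 6 eWAT libraries, without liver LF libraries 1 to 4, or with limma voom and the replicate block. From LF to HFLF the difference passed for Gstp2 (-4.29), but not without liver LF libraries 1 to 4 or with limma voom and the replicate block.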

How the results depend on the processing

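Liver counts against LF fell without LF libraries 1 to 4, in fits with 2 LF libraries. The counts were 0 for HF against LF (17 reported), 0 for HFLF against LF (5) and 7 for HFLF against HF (4), and the tissue differences 10 (18) and 0 (1). Of the lost calls, Gstk1 kept 0.545 (0.67) and Sult5a1 1.71 (1.36). Without LF libraries 1 and 2 the first 2 counts were 9 and 1. DESeq2 gave 9 and 8 members for liver HFLF against LF and HFLF against HF, and limma voom 9 and 9. For eWAT HFLF against HF the count was 5 without the 6 eWAT libraries (13). With each library left out in turn, liver counts were 13 to 21, 1 to 10 and 1 to 9 in the same order, and eWAT counts 14 to 19, 0 to 0 and 9 to 15. Without the 6 eWAT libraries the differences of Sult2a8 (-0.41) and Ugt2b5 (-0.35) turned sign, and the cause was not tested. Over all genes, upper-quartile factors called 2352 genes higher and 2033 lower for eWAT HFLF against HF, where TMM gave 1784 and 2458, and 2952 and 1869 for liver HF against LF, where TMM gave 2295 and 2596.

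The replicate numbers were not taken as pairs: correlations of residuals of same-numbered libraries between diets ran from -0.61 to 0.571, with the own number best in 0 to 2 of 6. Between liver and eWAT of a diet they were 0.043 to 0.155 in LF, with the own number best in 5 of 6, -0.035 to 0.125 in HF (2 of 6) and 0.012 to 0.106 in HFLF (1 of 6). With the replicate block, liver counts were 20, 10 and 5 and eWAT counts 16, 0 and 14, and limma voom with the block gave 18 and 0 tissue differences, of which 16 were shared with edgeR; Sult2a8 and Ugt2b5 and, for HFLF against LF, Gstp2 (-3.47) were lost, and Gstm4 and Ugt1a6b added.

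All libraries are bulk tissue, 6 a group, and members near 0.5 CPM rest on few reads. Reads of near-identical members cannot be fully told apart.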
